A study of Homo sapiens with 3 samples.

Results

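Long noncoding RNA (lncRNA) genes of HaCaT keratinocytes were described across a control library and 2 libraries of cells depleted of SRSF5. HaCaT is a spontaneously immortalized line of human skin keratinocytes, and SRSF5 is a splicing factor with arginine and serine repeats. All cells were of this 1 line and received siRNA at 10 nM with a lipid reagent. The groups were a control siRNA (wild type in the labels, 1 library), siRNA No.1 against SRSF5 (1 library) and siRNA No.2 against SRSF5 (1 library), called siRNA 1 and siRNA 2 here. The labels give no time after transfection, and nothing says that a transfection was repeated in separate cultures.

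A gene was taken when each of its listed transcripts had the type lncRNA and its FPKM (a read level scaled to transcript length and library depth), summed over those transcripts, reached 5 in at least 1 library. MALAT1, NEAT1, GAS5, ZFAS1 and the SNHG genes were left out by name (9 genes in all). This gave 147 genes of 60506 on the chromosomes. They stand beside 16456 genes with only lncRNA transcripts, of which 9000 were listed at 0 in all 3 libraries. The 147 genes were thus chosen by their summed FPKM in the same 3 libraries, and their levels are a description. Of the 147, 89 reached 5 in every library and 31 were under 5 in the control, so that those 31 could enter only through a higher siRNA library. In 9 genes only the siRNA 1 library reached 5, in 14 only the siRNA 2 library and in 4 only the control. All 147 also had a mean of at least 1 FPKM and entered the fit over all genes.

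The last genes inside the threshold were AP002387.2, AC008736.2 and LINC00265, with highest values of 5.03, 5.20 and 5.22 summed FPKM. The first outside it were LINC00630 at 4.99, MYLK-AS1 at 4.95 and LINC00467 at 4.95. The values lie close together, and the line between them has no meaning of its own.

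LncRNAs are transcripts without a long open reading frame that are mostly made by RNA polymerase II, and many are spliced and polyadenylated as mRNAs are. Some act on chromatin at their own locus, some bind proteins or miRNAs in the nucleus or cytoplasm, and others are by-products of a promoter or of read-through from a neighbouring gene. An SR protein such as SRSF5 can meet these RNAs wherever they hold exons. In the epidermis, lncRNAs are known as regulators of keratinocyte differentiation.

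Sequences of 2 kinds bear on what follows. The first are junctions of genes whose exons come from neighbouring genes, shown because their levels are read from the same bases as those neighbours. Each run gives the 15 last bases of the upstream gene's exon in lower case and, in capitals, the 15 first bases of the downstream gene's exon, from the annotation GENCODE 29 on GRCh38. AL671762.1 joins HSPA1B to SNHG32, AC026461.1 joins MT1X to DPPA2P4, AL512356.1 joins NUDT14 to JAG2, and AP005263.1 joins NDUFV2 to ANKRD12.
AL671762.1: aaggagctggagcagGAGTTGTAAGACGTT
AC026461.1: ttgccttaaaaatggGAGACCAGATTACAG
AL512356.1: ctgcattaccgccagCGCTCCTTTACCCTC
AP005263.1: aatttatattgaactATCCAGGATGAGAAG

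The second are promoters (RefSeq, GRCh38.p14, 250 bases before to 50 bases after the start) of genes that stood apart from the control in at least 1 library. Capitals mark the AP-1 motif TGANTCA, which binds the JUN and FOS factors of keratinocytes. The windows are chr2:207239561-207239860 on the plus strand for MYOSLID, chr10:71218179-71218478 on the minus strand for UNC5B-AS1 and chr5:112160276-112160575 on the plus strand for EPB41L4A-AS1.
MYOSLID: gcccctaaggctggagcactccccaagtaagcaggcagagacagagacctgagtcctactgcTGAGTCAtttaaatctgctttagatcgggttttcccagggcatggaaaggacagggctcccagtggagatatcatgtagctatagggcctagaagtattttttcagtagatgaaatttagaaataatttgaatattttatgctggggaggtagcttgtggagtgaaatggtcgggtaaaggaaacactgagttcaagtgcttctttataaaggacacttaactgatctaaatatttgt
UNC5B-AS1: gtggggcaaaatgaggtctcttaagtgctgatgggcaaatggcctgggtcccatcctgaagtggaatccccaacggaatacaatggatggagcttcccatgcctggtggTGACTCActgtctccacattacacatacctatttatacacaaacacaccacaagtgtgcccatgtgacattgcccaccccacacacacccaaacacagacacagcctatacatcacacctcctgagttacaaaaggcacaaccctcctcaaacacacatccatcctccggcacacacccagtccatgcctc
EPB41L4A-AS1: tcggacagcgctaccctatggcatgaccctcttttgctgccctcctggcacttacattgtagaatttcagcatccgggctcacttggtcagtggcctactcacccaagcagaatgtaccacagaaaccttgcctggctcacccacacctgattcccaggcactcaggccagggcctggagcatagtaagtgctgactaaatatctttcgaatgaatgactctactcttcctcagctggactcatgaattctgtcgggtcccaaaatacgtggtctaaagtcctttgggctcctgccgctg

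RefSeq windows were matched for 58 of the 147 genes. On either strand, TGANTCA was in 7 of 58 windows (12.1%), namely CYTOR, EIF3J-DT, GABPB1-AS1, LINC01269, MYOSLID, OLMALINC and UNC5B-AS1, against 7.76% of all 27305 windows. The TEAD motif GGAATG was in 7 of 58 (12.1%) against 14.0%, and the CArG box of serum response factor was in 0 of 58 against 1.29%. A match describes letters and is no binding site. The EPB41L4A-AS1 window holds none of the 3 motifs, which says only that these letters are not in it. The motifs and the genes shown were picked with the values known.

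Depth was similar, at 18323681 read equivalents (100 bases each, counted on the largest transcript of every gene) for the control, 17708195 for siRNA 1 and 15864985 for siRNA 2. SRSF5 itself had a mean FPKM per transcript of 4.95, 2.33 and 0.983 in these libraries, so depletion was deeper with siRNA 2. Keratinocyte markers were abundant in all 3, with KRT5 at 205, 233 and 320. Of the 8 keratinocyte markers 5 were highest with siRNA 2, namely KRT5, KRT14 (238, 347 and 1055), DSG3 (55.2, 41.3 and 150), TP63 (2.01, 2.10 and 4.58) and PKP1 (14.6, 8.33 and 30.2). The other 3 were lowest with siRNA 2, namely ITGA6 (29.9, 24.3 and 16.9), ITGB4 (19.4, 27.9 and 17.9) and SFN (402, 447 and 361). MLANA and TYR, which define melanocytes, were listed at 0, and each fibroblast, melanocyte, immune and endothelial marker examined was under 0.4. The mitochondrial share of base overlaps was 14.0%, 15.1% and 10.2%, lowest with siRNA 2. The part of these differences in any result with siRNA 2 was not tested. In bulk RNA, fewer cells that make a transcript and less of it per cell cannot be told apart.

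The 147 genes held 0.248% of the base overlaps of the control library, 0.288% of those of siRNA 1 and 0.252% of those of siRNA 2. Their 10 highest genes took 38.2% of the summed control FPKM. Counting was shallow for many of them. The median largest transcript held 191 read equivalents in the control, and the lowest held 17.1 in the control and 12.2 with siRNA 2. Isoforms share reads in these values, so a sum grows with the number of listed transcripts. That number was 1 in 57 genes and 10 or more in 33, up to 142 in MUC20-OT1. In 83 genes the highest transcript, taken by its mean over the libraries, reached 5 FPKM in at least 1 library. Levels between genes are therefore ordered by the highest transcript, and the libraries are compared by the sum.

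Ordered in this way, 9 of the 10 leading genes in the control are given here. AL671762.1 had a transcript of 67.4, 41.9 and 41.6 FPKM in the control, siRNA 1 and siRNA 2 libraries, and NORAD was at 53.9, 81.7 and 57.7. NORAD is an unspliced RNA on chromosome 20 that binds PUMILIO proteins and is induced by DNA damage. It was the highest of these 9 genes that shared no exon with a neighbour.

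AC119427.2 came next at 39.7, 30.4 and 57.0, then AC245041.1 at 31.1, 106 and 28.0. AL035661.1, a single-transcript gene of chromosome 20, was at 26.6, 33.8 and 15.4. AL590666.2 was at 25.5, 47.8 and 14.9 and AC026461.1 at 20.6, 12.5 and 34.1. The last of the leading genes were AC244230.1 at 18.2, 24.0 and 24.2 and HOXA10-AS, which runs antisense through the HOXA cluster, at 18.1, 16.3 and 13.4. In 3 of these 9 (AL671762.1, AC119427.2 and AC026461.1) at least 90% of the exon bases lay in exons of other genes, and in AC244230.1 60.1% did.

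By sums, the well-known UCA1 and IGFL2-AS1 were near the top. UCA1, named for its abundance in urothelial cancer, summed to 164, 182 and 222 FPKM over 45 transcripts, with its highest transcript at 5.99 in the control. IGFL2-AS1 summed to 99.6, 105 and 101 over 14 transcripts, with its highest at 11.4. For IGFL2-AS1 the log2 ratios to the control were 0.07 and 0.01, each smaller than its counting error of 0.09. The 3 libraries differed by less than counting error for this RNA.

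**Figure D1:**
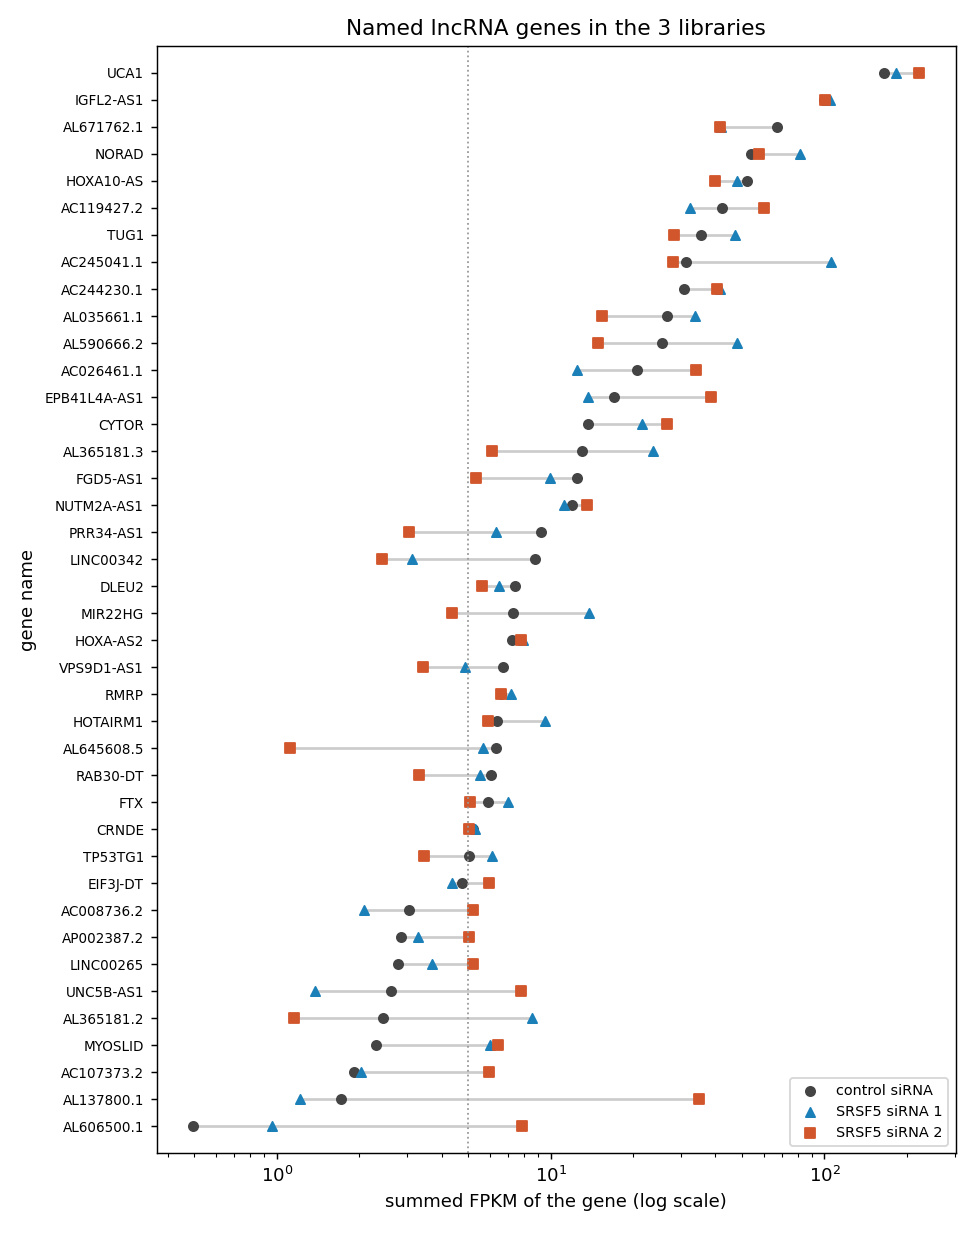
Summed FPKM (log axis) of 40 lncRNA genes named by rule, 1 row per gene, in the control (circles), siRNA 1 (triangles) and siRNA 2 (squares) libraries; the dotted line is 5 FPKM and each point is 1 library. UCA1 and IGFL2-AS1 sit near the top with close points, and AL137800.1 spans from 1.22 with siRNA 1 to 34.9 with siRNA 2.

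The design sets a control siRNA beside 2 siRNAs against SRSF5, so the control was first compared with both siRNA libraries. Ratios are log2 of summed FPKM plus 1, which understates low genes, siRNA library over control. The 2 ratios of a gene share the 1 control library. Where a pair is given, siRNA 1 comes first.

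MYOSLID alone was at least 2-fold higher with both siRNAs, and LINC00342 alone was at least 2-fold lower with both. That is 2 of 147 genes, against 1.01% of all 13923 genes tested, and 1 gene (0.68%) in each direction, against 0.733% higher and 0.28% lower. The same libraries chose the 147 genes, so nothing is read from these counts, here or for each siRNA alone. The median ratios of the 147 genes were -0.03 and -0.02, beside -0.02 and 0.05 over all genes tested. The middle of the group thus lay close to the control in both libraries.

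MYOSLID is known as a lncRNA of smooth muscle cells that depends on serum response factor and myocardin. It lies on chromosome 2, 207166120 to 207248668 on the plus strand. Only the first bases of this span overlap the transcription factor gene KLF7, at 207074137 to 207167267 on the minus strand. The promoter window printed above belongs to a listed start far inside the span, beyond KLF7. The summed FPKM of MYOSLID was 2.30 for the control, 6.02 for siRNA 1 and 6.41 for siRNA 2. Both siRNA libraries were above the control and differed little from each other. Its log2 ratios were 1.09 and 1.17, each with a counting error of 0.30, from 32.2, 78.5 and 83.5 read equivalents. KLF7, on the other strand, had ratios of 0.17 and 0.84.

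LINC00342 is an intergenic RNA of chromosome 2, 95807052 to 95835003 on the minus strand. Its summed FPKM was 8.80, 3.13 and 2.43. The control was the highest library, with ratios of -1.25 (counting error 0.17) and -1.51 (0.20). The nearest coding gene, ANKRD36C, lies 1916 bases away and had ratios of -0.89 and -0.66 at a mean FPKM per transcript of only 0.762, 0.353 and 0.435. This region has near-copies elsewhere in the genome, and the placing of reads that match more than 1 place is unknown, so the value is uncertain.

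Neither call held for every way of setting a level. With the highest transcript in place of the sum the mean ratio was 0.69 for MYOSLID and -0.79 for LINC00342, neither gene was 2-fold away in both libraries, and neither reaches a mean of 5 summed FPKM over the 3 libraries.

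limma, fitted to the same log values of all 13923 genes, called 0 genes at an adjusted p of 0.05, and 0 of the 147. At an unadjusted p under 0.05 it held 416 of all genes (2.99%) and 5 of the 147. These 5 were LINC00342, LNCAROD, MYOSLID, AC140479.5 and AC245041.2, each with an adjusted p of 1.00 by limma with Benjamini-Hochberg adjustment. The unadjusted limma p of LINC00342 was 0.00766 and that of MYOSLID 0.0217. The fit has 1 residual degree of freedom, takes its spread from the difference between the siRNAs and assumes that the lone control varies alike.

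LNCAROD, known as an activating regulator of the WNT inhibitor gene DKK1, is named here after its values were seen. It lies on chromosome 10, 52450874 to 52755507 on the minus strand. Its summed FPKM was 15.6, 47.1 and 30.2, so both siRNA libraries were above the control and siRNA 1 was the highest. The ratios were 1.53 and 0.91, with counting errors of 0.09 and 0.10, and only the first reached 2-fold. limma gave a mean ratio of 1.22 with a standard error of 0.42 and an unadjusted p of 0.0133. DKK1, also named after its values were seen, had ratios of 0.44 and 1.54, with siRNA 2 the higher library.

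CYTOR, an RNA linked to the cytoskeleton and to growth, was under 2-fold in both, with summed FPKM of 13.7, 21.5 and 26.6 and ratios of 0.61 and 0.91. SFTA1P, a pseudogene named for surfactant, was at 13.0, 20.4 and 19.3 with ratios of 0.61 and 0.54. The 2 genes were higher than the control in both siRNA libraries, and neither had a limma p under 0.05. CYTOR shares near-identical sequence with MIR4435-2HG on the same chromosome, and its level is uncertain.

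**Figure D2:**
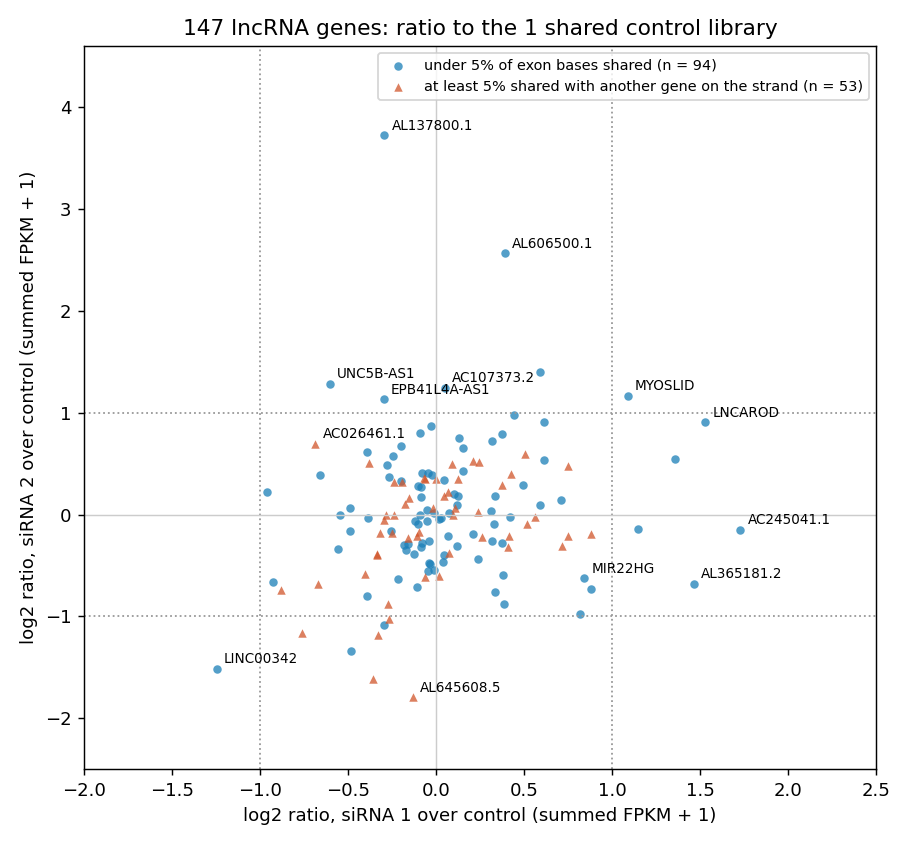
Log2 ratio to the control of the 147 lncRNA genes with siRNA 1 (horizontal) and siRNA 2 (vertical), each point 1 gene, triangles for genes with at least 5% of exon bases in same-strand exons of other genes; dotted lines mark 2-fold. MYOSLID (1.09, 1.17) and LINC00342 (-1.25, -1.51) are alone in the outer corners of equal sign, and both axes use the same control library.

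With siRNA 1 alone, 6 of the 147 genes were at least 2-fold higher (4.08%, against 1.7% of all genes tested) and 1 was lower (0.68%, against 1.33%). Beside MYOSLID and LNCAROD the higher genes were AC245041.1, AC245041.2, AL365181.2 and AC022034.1. AC022034.1, on chromosome 8, was at 2.75, 7.30 and 2.40 summed FPKM, with a ratio of 1.15 for siRNA 1 and -0.14 for siRNA 2. MYOSLID, AL365181.2 and AC022034.1 were under 5 in the control and entered through a higher siRNA library, so the rule itself raises the count of higher genes. With a mean of at least 5 FPKM over the 3 libraries (118 genes) 3 were higher and 0 lower. None of these has a replicate, and the counting error is the only error that can be given.

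With siRNA 2 alone, 7 genes were at least 2-fold higher (4.76%, against 4.5% of all genes tested) and 8 were lower (5.44%, against 2.83%). The higher genes were MYOSLID, AC025171.3, AC107373.2, AL137800.1, AL606500.1, EPB41L4A-AS1 and UNC5B-AS1. The lower ones were LINC00342, PRR34-AS1, FGD5-AS1, AC140479.5, AL390195.1, AL445524.1, AL591895.1 and AL645608.5. Of the 7 higher genes 6, all but EPB41L4A-AS1, were under 5 in the control and entered through a higher siRNA library. With a mean of at least 5 FPKM 3 were higher and 6 lower. None of the 7 higher genes and 5 of the 8 lower genes had at least 5% of their exon bases in exons of another gene on their strand.

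AL137800.1 had the largest ratio of the 147 genes in these comparisons. It is a single-transcript gene of chromosome 1, 183613537 to 183619335 on the plus strand. Its FPKM was 1.72 for the control, 1.22 for siRNA 1 and 34.9 for siRNA 2, from 65.5, 44.0 and 1231 read equivalents. The siRNA 2 library stood far above the other two, with ratios of -0.30 and 3.72 (counting errors 0.28 and 0.18). ARPC5, which encodes a subunit of an actin-nucleating complex and lies 1511 bases away, had ratios of -0.21 and 0.28.

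AL606500.1, on chromosome 1, was at 0.495, 0.961 and 7.86 FPKM, with ratios of 0.39 and 2.57. EPB41L4A-AS1, a spliced RNA of chromosome 5 that hosts a small nucleolar RNA, was at 17.0, 13.6 and 38.5 summed FPKM. Its ratios were -0.30 and 1.13, with counting errors of 0.16 and 0.13. The gene on the other strand, EPB41L4A, overlaps 56.4% of its exon bases and had ratios of -0.47 and 0.34 at a mean FPKM per transcript under 0.75.

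UNC5B-AS1 lies inside UNC5B, a netrin receptor gene, on the opposite strand. Its summed FPKM was 2.62, 1.39 and 7.83, lowest with siRNA 1 and highest with siRNA 2. The ratios were -0.60 and 1.29, with counting errors of 0.37 and 0.27 from 40.0, 23.5 and 98.0 read equivalents. UNC5B itself had ratios of -0.45 and -0.17, lower than the control in both libraries.

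AC107373.2, on chromosome 8, lies wholly opposite exons of NEFL, the gene of the light neurofilament protein. AC107373.2 was at 1.92, 2.03 and 5.93 FPKM and NEFL at a mean per transcript of 8.38, 6.97 and 18.5. Both were highest with siRNA 2, with ratios of 0.05 and 1.25 for AC107373.2 and -0.26 and 1.12 for NEFL. Across the libraries' annotation, 33 single-exon transcripts lie inside an opposite-strand exon of a transcript above 5 FPKM in the control. Their median control FPKM was 0.0838% of that of the outer transcript, with 1 above it, so counting used strand, but reads copied from the wrong strand at NEFL were not tested.

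Of the lower genes, FGD5-AS1 starts within 1 kb of the start of NR2C2, on the opposite strand and inside the span of NR2C2. Its summed FPKM was 12.5, 9.98 and 5.35, and its ratios were -0.30 and -1.09. NR2C2, a nuclear receptor gene, had 0.01 and 0.20. PRR34-AS1, on chromosome 22, was at 9.20, 6.29 and 3.04 with ratios of -0.48 and -1.34. The counting errors of PRR34-AS1 were 0.28 and 0.37, from 64.6, 44.4 and 19.3 read equivalents. In both antisense-named genes the siRNA 2 library was the lowest.

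The ratio of siRNA 2 to siRNA 1 does not use the control library. Between the siRNAs 9 genes were at least 2-fold higher with siRNA 2 (6.12%, against 3.96% of all genes tested) and 12 were lower (8.16%, against 2.88%). The 147 genes spread more widely here, with a standard deviation of 0.76 against 0.55 over all genes tested and 0.57 over the 9547 coding genes of at least 5 FPKM in 1 library. Their median counting error for this ratio was also larger, at 0.15 against 0.10 for those coding genes. The rule took genes on 1 high library, which by itself widens the spread and adds to both counts, and the part of each was not tested. With a mean of at least 5 FPKM 3 were higher and 7 lower.

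Higher with siRNA 2 were AL137800.1 (4.02), AL606500.1 (2.18), UNC5B-AS1 (1.89), EPB41L4A-AS1 (1.43), AC026461.1 (1.38) and AC107373.2 (1.20), followed by AC068580.2, AC092368.3 and AC008736.2. Lower with siRNA 2 were AL365181.2 (-2.14), AC245041.1 (-1.88), AL365181.3 (-1.80), AL645608.5 (-1.66), AL590666.2 (-1.61) and MIR22HG (-1.47). The remaining lower genes were AC022034.1, ASB16-AS1, AL445524.1, AL035661.1, LINC01089 and AL512356.1. The values in parentheses are log2 ratios of siRNA 2 over siRNA 1.

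Of the 6 farthest lower genes, 3 lie side by side on chromosome 1 at BCAN, which encodes brevican, a proteoglycan of the brain. All 3 are single-transcript genes on the minus strand, opposite to BCAN. AL365181.2, at 156637783 to 156641004, was at 2.45, 8.52 and 1.16 FPKM. AL365181.3, at 156641666 to 156644887, was at 13.0, 23.6 and 6.09, and AL590666.2, at 156646507 to 156661424, at 25.5, 47.8 and 14.9.

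Each of the 3 was highest with siRNA 1 and lowest with siRNA 2. Their ratios to the control were 1.46 and -0.68 for AL365181.2, 0.82 and -0.98 for AL365181.3, and 0.88 and -0.73 for AL590666.2. The largest counting error among these 6 ratios was 0.14. BCAN was nearly silent, at a mean FPKM per transcript of 0.00798, 0.0238 and 0.00427. The 3 genes are neighbours on 1 strand and may not be separate transcripts, so they are not independent observations. Averaged over the siRNAs, limma gave mean ratios of 0.39, -0.08 and 0.07.

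On chromosome 10, AC245041.1 (47970043 to 47973496, minus strand) was at 31.1, 106 and 28.0 FPKM. Its ratios were 1.73 and -0.15, with counting errors of 0.05 and 0.06. The siRNA 1 library was the highest, and siRNA 2 lay slightly below the control. AC245041.2 (47908064 to 47991877, minus strand) spans the same interval and summed to 25.4, 66.7 and 37.5, with ratios of 1.36 and 0.54. AC244230.1 lies among copies of the same duplicated region, and 60.1% of its exon bases are in exons of other genes. It was at 30.6, 41.5 and 40.6, with ratios of 0.43 and 0.40, close to 0.48 and 0.53 for ANXA8L1, an annexin gene whose exons it shares. ANXA8, the near-identical annexin copy, had 0.40 and 0.39. All values in this duplicated region are uncertain.

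MIR22HG, the host of miR-22, was at 7.28, 13.9 and 4.37 summed FPKM, highest with siRNA 1 and lowest with siRNA 2. Its ratios were 0.84 and -0.62, with counting errors of 0.18 and 0.24. WDR81, which starts within 1 kb on the other strand, had -0.03 and -0.24. The order of the libraries was that of the BCAN group, at a locus on another chromosome.

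**Figure D3:**
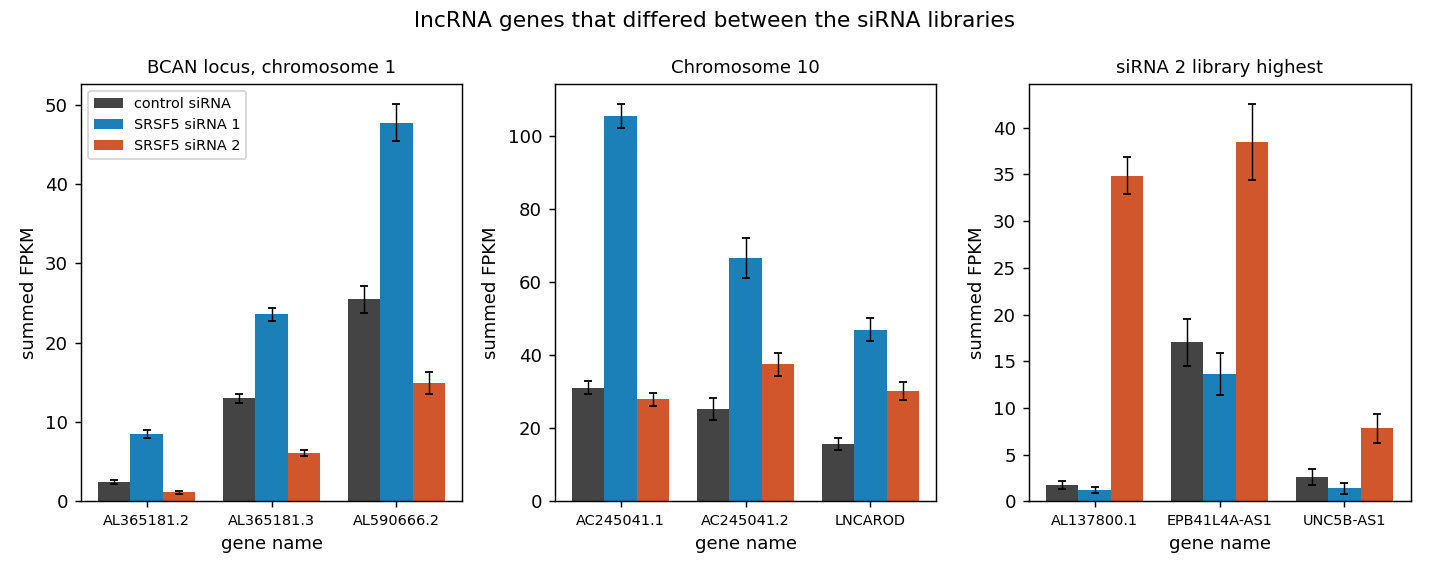
Summed FPKM (linear axes from 0) of 9 lncRNA genes in the control, siRNA 1 and siRNA 2 libraries; bars are 1 library each and error bars are 95% counting intervals from read equivalents of the largest transcript. The 3 genes at BCAN and AC245041.1 are highest with siRNA 1, LNCAROD is above the control with both, and the genes of the right panel are highest with siRNA 2.

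Many of the 147 genes are not separate from their neighbours in sequence. For 53 of 147 (36.1%) at least 5% of the exon bases lay in same-strand exons of other genes, against 11.5% of the 9547 coding genes of at least 5 FPKM. For 32 the share was at least 50% and for 20 at least 90%, and 42 of the 53 carry only a clone name. Of the other genes, 25 started within 1 kb of a coding gene on the opposite strand, 30 lay antisense to a coding gene, and 29 were over 5 kb from any coding gene. A further 8 were within 5 kb and 2 inside a coding gene on its strand. The median ratios of these position groups lay between -0.13 and 0.07 for siRNA 1 and between -0.33 and 0.44 for siRNA 2.

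In the 32 genes with at least 50% shared, the siRNA 2 over siRNA 1 ratio followed that of 1 partner gene with shared exons, with Pearson 0.860 and Spearman 0.779. The 50% counts all other genes together, so the partner can hold less, as PGAM5 does with 9.70% of the exon bases of AC135586.2. With the partner taken as the gene with the largest share, 30 pairs gave 0.932 and 0.897. The first choice of partner was made after values were seen. It was the gene with the highest mean FPKM per transcript among those holding at least 5% of the exon bases. For 5% to 50% shared the first choice gave 0.687 and 0.747 over 19 pairs. These are descriptions across genes, which share libraries and, in large part, the counted bases themselves.

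Genes without such sharing followed their neighbours less closely in these data, though the difference was not tested. Against a tested gene with exons on the opposite strand Pearson was 0.386 over 32 pairs, and against the nearest coding gene it was 0.240 over 62 pairs. The points again share the same libraries.

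**Figure D4:**
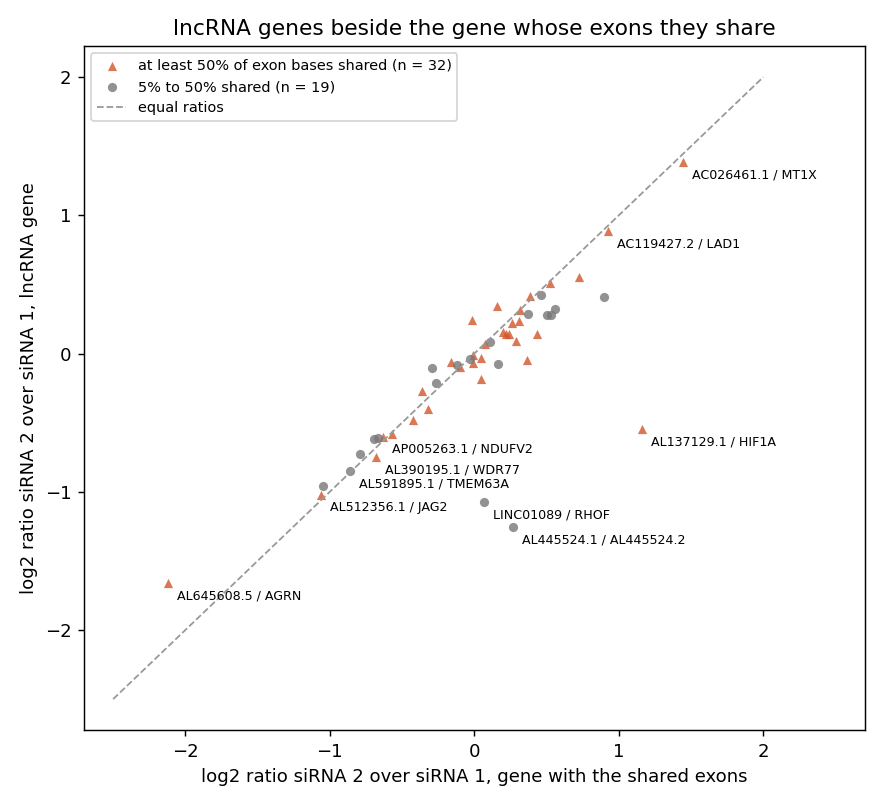
Log2 ratio of siRNA 2 over siRNA 1 for lncRNA genes (vertical) and for 1 gene whose same-strand exons they share (horizontal). Triangles mark at least 50% of exon bases shared with all other genes together (32 pairs) and circles 5% to 50% (19 pairs). The plotted partner can hold a smaller share. The dashed line marks equal ratios. Most pairs lie near the line, with AC026461.1 and MT1X high at 1.38 and 1.44, and AL137129.1 with HIF1A is far from it. HIF1A holds only 20.6% of the exon bases of AL137129.1.

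The joined genes printed above show this closely. AL671762.1, at 67.4, 41.9 and 41.6 FPKM, had ratios of -0.67 and -0.68. HSPA1B, the inducible heat shock protein gene that gives 68.8% of its exon bases, was at 53.5, 33.9 and 33.6 with -0.64 and -0.65. Both were lower than the control in both siRNA libraries, under 2-fold, and HSPA1B has a near-identical copy. SNHG32, at the other end of the junction, had ratios of 0.07 and 0.88.

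AC026461.1 had ratios of -0.69 and 0.70, beside -0.66 and 0.78 for MT1X, a metallothionein that binds metal ions. Both were lowest with siRNA 1 and highest with siRNA 2. AL512356.1 was at 13.3, 22.6 and 10.6 FPKM with ratios of 0.72 and -0.30, beside 0.76 and -0.30 for JAG2, a Notch ligand. In this pair the order of the libraries was the opposite one.

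AP005263.1, at 26.1, 21.4 and 13.8, had -0.27 and -0.87, beside -0.26 and -0.89 for NDUFV2, a subunit of respiratory complex I. AC119427.2, not among the printed junctions, had -0.38 and 0.50, beside -0.46 and 0.47 for LAD1, an anchoring protein of the basement membrane. Exons of other genes hold 96.2% of the exon bases of AC119427.2, and LAD1 holds 29.6%. TNNT2, which AC119427.2 overlaps on the same strand, had ratios of 1.17 and 1.43. The mean FPKM per transcript of TNNT2 was only 0.0425, 0.135 and 0.167.

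AL645608.5 lies wholly within exons of AGRN, the gene of the heparan sulfate proteoglycan agrin. Its FPKM was 6.32, 5.69 and 1.12, and AGRN had a mean per transcript of 8.56, 8.79 and 1.94. The ratios of AL645608.5 were -0.13 and -1.79, beside 0.04 and -2.08 for AGRN, and the siRNA 2 library was low in both. AL390195.1 with WDR77, a partner of an arginine methyltransferase, had -0.27 and -1.02 beside -0.31 and -0.99, and AL591895.1 with the membrane protein gene TMEM63A had -0.33 and -1.18 beside -0.45 and -1.31. AC140479.5 was at 18.9, 10.7 and 7.89 summed FPKM with -0.76 and -1.16, beside -0.74 and -1.06 for AC140479.6. In these 4 of the 5 exon-sharing genes lower with siRNA 2 the other gene was also lower in that library, while with siRNA 1 AL645608.5 and AGRN differed in sign.

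AL691482.3 shares 67.3% of its exon bases with ELF3, an epithelial transcription factor. It was at 12.9, 6.56 and 7.34 FPKM with ratios of -0.88 and -0.74, beside -0.94 and -0.72 for ELF3. AP003064.2 lies opposite to SCGB1A1, a secretoglobin gene known from airway epithelium, and was at 6.29, 2.83 and 3.61. Its ratios were -0.93 and -0.66, beside -1.13 and -1.18 for SCGB1A1, whose mean FPKM per transcript was 1240, 567 and 546. Reads copied from the wrong strand at SCGB1A1, by far the more abundant of the pair, were not tested. Both lncRNA genes were lower than the control in both libraries, and neither reached 2-fold with either siRNA.

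Some pairs went apart. AL137129.1, with 20.6% of its exon bases in HIF1A, was at 12.7, 12.1 and 7.99 FPKM. Its siRNA 2 over siRNA 1 ratio was -0.54, against 1.16 for HIF1A. Exons of all other genes together hold 99.0% of the exon bases of AL137129.1. SNAPC1, which AL137129.1 also overlaps on the same strand, had a ratio of -0.92, in the direction of the lncRNA gene. LINC01089 was at 3.06, 6.48 and 2.55, with a ratio of -1.08 against 0.06 for RHOF, a small GTPase gene that holds 41.7% of its exon bases. AL445524.1, the last of the 5 exon-sharing genes lower with siRNA 2, was at 16.6, 12.7 and 4.76. Its ratio was -1.25, against 0.26 for AL445524.2, which holds 5.86% of its exon bases. The ratio of AL445524.1 has a counting error of 0.49, from only 30.6 read equivalents with siRNA 1 and 12.2 with siRNA 2. In these 3 pairs the lncRNA gene and the partner it was compared with differed in sign, though RHOF was nearly level at 0.06.

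Lists of lncRNAs known from the literature were read as counts. Of 34 growth and cancer-linked names 11 were among the 147 genes, with 0 higher (against 0.733% of all genes tested) and 1 lower (LINC00342, against 0.28%) in both siRNA libraries and median ratios of 0.15 and -0.10. TUG1, which associates with chromatin regulators, was at 35.5, 47.3 and 28.3 summed FPKM with ratios of 0.41 and -0.32. HOTAIRM1, of the HOXA cluster, was at 6.36, 9.51 and 5.88 with 0.51 and -0.10. NORAD, TUG1 and HOTAIRM1 were each highest with siRNA 1.

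VPS9D1-AS1 was at 6.70, 4.87 and 3.42, with ratios of -0.39 and -0.80, and DLEU2, a host of tumour-suppressive miRNAs, was at 7.40, 6.46 and 5.62 with -0.17 and -0.34. The direction of DLEU2 depends on the summing, since its highest transcript was at 0.886, 1.38 and 1.17 and gave a mean ratio of 0.27 in place of -0.26. CRNDE was flat, at 5.21, 5.29 and 5.04, with ratios of 0.02 and -0.04 and counting errors of 0.26 and 0.27. HOXA-AS2 was at 7.22, 7.94 and 7.79, with 0.12 and 0.10. FTX, a lncRNA of the X inactivation centre, was at 5.91, 6.99 and 5.06 with 0.21 and -0.19. None of these 5 was 2-fold from the control in either library.

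Of 20 keratinocyte and epidermal names, EPB41L4A-AS1 and IGFL2-AS1 were among the 147 genes. TINCR and MIR205HG were not, because at least 1 of their listed transcripts has another type. Of 12 p53-linked names 1 was, TP53TG1, at 5.02, 6.09 and 3.45 with ratios of 0.24 and -0.44 and counting errors of 0.38 and 0.45. Of 10 interferon-linked names 0 were. MIR22HG and NUTM2A-AS1 were the 2 of 12 YAP, TGF-beta and hypoxia-linked names, and NUTM2A-AS1 was at 11.9, 11.2 and 13.6 with -0.09 and 0.17.

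Of 11 housekeeping RNAs 5 were among the 147, namely NORAD, TUG1, FTX, EPB41L4A-AS1 and RMRP. RMRP, the RNA of the ribonuclease that cleaves mitochondrial primers and precursor ribosomal RNA, was at 6.61, 7.15 and 6.60 with ratios of 0.10 and 0.00. It was level within its counting error of 0.23. A second gene entry of the same name covers 98.5% of its exon bases, so the reads of the 2 entries cannot be told apart.

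Of the genes with divergent names, RAB30-DT was at 6.05, 5.53 and 3.31 summed FPKM with ratios of -0.11 and -0.71, and EIF3J-DT at 4.74, 4.35 and 5.97 with -0.10 and 0.28. The genes at the edge of the threshold had small ratios with siRNA 1. AP002387.2 was at 2.84, 3.27 and 5.03, LINC00265 at 2.77, 3.69 and 5.22, and AC008736.2 at 3.04, 2.08 and 5.20. All 3 entered through the siRNA 2 library, which was their highest by construction.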

How the data were processed

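RNA of 3 HaCaT libraries was sequenced after a SMARTer mRNA kit, per the labels' protocols. Per the file headers, the deposited values are FPKM per transcript, made by the authors. Builds in the submitters' processing notes are GRCh38.p12, GRCm38 and mm10, with no use stated. The exons of 191787 of 191787 transcripts shared with GENCODE 29 were identical, so coordinates are GRCh38. The aligner and counter: not given in the sources used here. FPKM times length gave whole base overlaps in 100% of values (tolerance 0.05). A read equivalent is 100 bases, and counting errors come from the largest transcript of a gene and cover counting error only. Transcripts on alternate scaffolds and duplicates (20343 of 247012) were left out. Gene symbols matched 60214 of 60506 identifiers. The members and lists were chosen with earlier results of these data known. Genes were named by rule: 2-fold in both siRNA libraries, the 6 farthest each way between siRNAs, the 10 highest, list members, genes at the threshold and the 2 farthest per name class. Outside this rule 22 of the 147 were named after their values were seen: AC022034.1, AC025171.3, AC068580.2, AC092368.3, AC140479.5, AC245041.2, AL137129.1, AL390195.1, AL445524.1, AL512356.1, AL591895.1, AL691482.3, AP003064.2, AP005263.1, ASB16-AS1, GABPB1-AS1, LINC01089, LINC01269, LNCAROD, MUC20-OT1, OLMALINC and SFTA1P. limma 3.58.1 (R 4.3.3, trend, Benjamini-Hochberg) was run on log2(summed FPKM + 1) for genes of mean 1 FPKM or more. It was also run on simulated data with large planted changes and the same spread in every library. That run cannot check whether the lone control varies like the siRNA libraries. With 1 library per siRNA, p-values measure only the spread between these libraries, which may be technical. Of the 10 highest genes, 1 is not reported here. Exon sharing used bedtools 2.31.1. Sums of transcripts, pseudocount, scaling, threshold and libraries were varied.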

Additional observations from a re-analysis of the deposited data

How the results depend on the processing

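The counts rest on how transcripts are summed and on the threshold. With both siRNA libraries, 2 genes became 0 with the mean over listed transcripts, 0 with the highest transcript and 0 with a mean of at least 5 FPKM over the libraries (118 genes). Without siRNA 1 the control comparison held 15 and without siRNA 2 it held 7, a range of 7 to 15. The 7 genes with siRNA 1 became 4, 4 and 3 under the same choices, the 15 with siRNA 2 became 8 with the mean over transcripts and 9 with the mean threshold, and the 21 between siRNAs became 10 with the mean threshold. The mean log2 ratio of MYOSLID was 0.62 with the mean over transcripts and 0.69 with the highest transcript, and that of LINC00342 -0.47 and -0.79. A pseudocount of 1 weighs more on these smaller values. Without siRNA 1, or siRNA 2, limma has no residual degrees of freedom and was not run.

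The median ratio over both siRNAs, -0.03, was -0.0112 with the mean over transcripts, -0.00852 with the highest transcript, -0.0293 with a pseudocount of 0.1, -0.0354 with median scaling and -0.0119 without shared exons. The rule gave 83 genes by the highest transcript, 71 by the mean over transcripts and 89 at 5 FPKM in all libraries. limma called 0 genes under each alternative, with 3 to 6 of the 147 at an unadjusted p under 0.05. Changes in named genes were set against the spread between their 2 siRNA ratios, so a gene on which the siRNAs disagree rarely counts as moved. For single-transcript genes 2 of the 4 alternatives equal the sum by construction, so the next counts do not measure robustness. Of 252 values of 63 named genes under 4 alternatives, 233 moved by no more than that spread and 243 kept their sign. Of those reported here, EIF3J-DT went from a mean ratio of 0.09 to -0.07 with the highest transcript and DLEU2 from -0.26 to 0.27, and the others that changed sign (AC026461.1, FTX and OLMALINC) started from a mean ratio of at most 0.01. No paired analysis was possible because the groups compared share fewer than 2 replicate numbers, and the label of the control library gives no number.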
